A study of Homo sapiens with 12 samples.

Results

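Ribosome biogenesis is the making of ribosomes in the nucleolus. RNA polymerase I transcribes the ribosomal RNA (rRNA) precursor, small nucleolar ribonucleoproteins (snoRNPs) modify it, and assembly factors fold and cleave it and add ribosomal proteins until the small and the large subunit can leave the nucleus. The pathway is one of the most costly of a growing cell, and its genes are known to follow nutrient supply and growth signals. The 40 genes described here are a fixed list of such factors, given by name, out of 26475 gene symbols in the table. They comprised 3 core proteins of box C/D snoRNPs, 4 of box H/ACA snoRNPs, 3 nucleolar phosphoproteins, 8 proteins of the small-subunit processome, 4 late small-subunit factors, 12 large-subunit factors, and 6 subunits or initiation factors of RNA polymerase I. All 40 were among the 14582 genes that passed the filter on low counts, and the lowest count of any of them in any library was 442.

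The cells were MIAPaCa2, an established line of pancreatic ductal adenocarcinoma (PDAC), either parental or resistant to sodium oxamate, a pyruvate analog that inhibits lactate dehydrogenase A (LDHA). The resistant cells were polyclonal populations obtained by keeping the same line in oxamate over several weeks until colonies formed. Each line was left without the drug (labelled untreated, and called vehicle in the study) or was given the LDHA inhibitor, which made 4 groups of 3 RNA-seq libraries in the same serum-supplemented medium. The labels do not say that the replicates were separate cultures, so the p-values measure the spread between these libraries only, which may be technical.

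The libraries held 46698729 to 114222169 expected counts in total, and each parental library was deeper than each resistant one. LDHA mRNA, the target, stood between 1059 and 1086 CPM (counts per 1000000, with library totals scaled by TMM factors) in vehicle-treated and between 1546 and 1701 CPM in oxamate-treated parental cells, and between 944 and 970 and between 1198 and 1223 CPM in the resistant cells. KRT8, KRT18 and VIM were abundant in all 12 libraries and CDKN2A, CDKN2B and MTAP had 0 counts in each. Of the markers of other cell types, CD3E had 0 counts in each library, PTPRC, DCN and LUM had at most 3, and PECAM1 and CDH5 at most 57, whereas CD68 (56.4 to 220.2 CPM) and COL1A2 (693 to 950.0 CPM) were present. Nuclear-retained RNAs moved with the groups: the summed level of MALAT1, NEAT1, KCNQ1OT1 and MIAT was 321 to 357 CPM in vehicle-treated and 544 to 1187 CPM in oxamate-treated parental cells, and 534 to 1112 and 1080 to 1407 CPM in vehicle-treated and oxamate-treated resistant cells. The highest values of the parental oxamate and resistant vehicle groups were those of their replicates 3, and counts of the 40 genes without both libraries are given beside each comparison.

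Per length, the most abundant mRNA of the list in vehicle-treated parental cells was that of NPM1 (nucleophosmin), at 1196 CPM per kilobase of its longest coding transcript. NCL (nucleolin) followed at 272, FBL, the ribose methyltransferase of box C/D snoRNPs, at 245, NHP2 at 188 and NOB1 at 146 CPM per kilobase. The lowest were UTP20 at 2.90, UTP15 at 3.27 and POLR1A at 4.16 CPM per kilobase. The summed level of the 40 mRNAs was 6188 ± 77.0 CPM (SD, n = 3) in parental cells on vehicle and 5486 ± 60.9 CPM in those on oxamate, and 5600 ± 98.9 and 5118 ± 38.8 CPM in the resistant cells. NPM1 and NCL carried most of that sum, so it does not stand for the typical gene of the list. Its difference between the lines turned with the scaling. As a share of unscaled library totals the sum was higher in resistant cells. It was 0.573% to 0.582% in parental and 0.602% to 0.613% in resistant libraries on vehicle. On oxamate it was 0.484% to 0.489% in parental and 0.566% to 0.570% in resistant libraries. In RNA from whole cultures, less RNA in each cell and fewer cells that make it cannot be told apart. Only mRNA was analysed here, so a protein said below to fall, rise or differ stands for its mRNA.

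Many of these genes held the same short sequence, the E-box, close to their transcription start. Of the 40 genes, 34 had an entry in the RefSeq promoter table (GRCh38.p14, 250 bases before to 50 after the transcription start), with 41 starts, and NOP58, NOLC1, RRP12, BOP1, RRP1B and RRS1 were not analysed here. This palindrome, CACGTG, was in the window of 14 of the 34 genes (41.2%), against 12.4% of 10039 tested protein-coding genes and 10.9% of 15843 protein-coding genes in the table. It lay close to the start: its first base fell from 20 bases before to 45 after the start in those 14 genes, against 2.83% of tested genes, a range that was chosen after the positions had been seen. In the 250 bases before the start alone it was in 5.88% of the genes and 11.1% of tested genes. In 12 of the 14 the motif lay wholly in an untranslated stretch of an exon of a GENCODE release 29 transcript, and in UTP20 and NOP14 it did not. The motif is shown for the 3 genes whose oxamate responses differed with the smallest p between the lines (LTV1, WDR43 and NOP2) and for 4 genes that behaved otherwise (FBL, NOP10, NOP14 and GNL2), on the strand of the gene, with the E-box in capitals.
LTV1, chr6:143843354-143843383 (+): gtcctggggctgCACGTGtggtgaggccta
WDR43, chr2:28894658-28894687 (+): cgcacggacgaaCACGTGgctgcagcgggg
NOP2, chr12:6568242-6568271 (-): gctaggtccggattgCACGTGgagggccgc
FBL, chr19:39846356-39846385 (-): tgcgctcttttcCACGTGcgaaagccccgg
NOP10, chr15:34343130-34343159 (-): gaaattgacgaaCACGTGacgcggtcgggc
NOP14, chr4:2963374-2963403 (-): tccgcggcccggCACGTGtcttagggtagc
GNL2, chr1:37595917-37595946 (-): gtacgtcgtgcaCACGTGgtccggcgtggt

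The E-box began 29 bases after the start in LTV1, 4 after it in WDR43 and GNL2, 36 after it in NOP2 and 7 after it in FBL. Of 4 other motifs searched on both strands, CCGGAAG (the ETS class) was in 38.2% of the 34 genes against 22.0% of tested genes. CGCATGCG (NRF1) was in 5.88% against 4.36%, CCAAT (NFY) in 44.1% against 42.8%, and GGGCGG (GC box) in 73.5% against 77.3%. Genes of the list with and without the E-box had near-equal median falls after oxamate. The median log2 fold change in parental cells was -0.35 in the 14 genes with it, of which 10 fell, and also -0.35 in the 20 without it (-0.345 unrounded), of which 17 fell. Of tested genes, 438 of 1241 with the E-box in the window and 2938 of 8798 without it fell, at an adjusted p under 0.05. Their medians were -0.026 and -0.013. These are matches of letters in the reference sequence, and binding was not measured here.

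**Figure D1:**
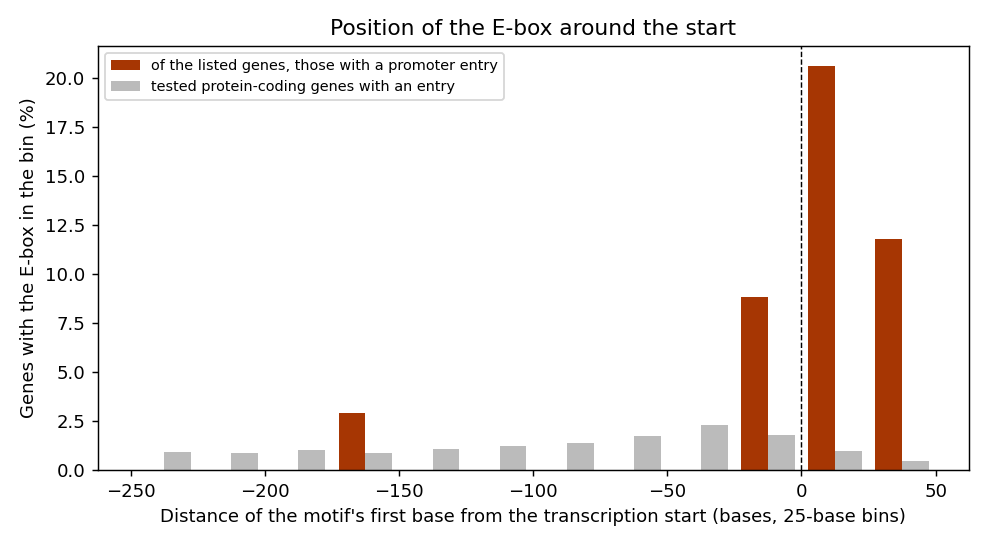
Percentage of genes with the E-box beginning in each 25-base bin around the transcription start (x axis, bases from the start), for the 34 genes of the list with a promoter entry (brown) and the 10039 tested protein-coding genes with one (grey). In the list the motif was in 8.82%, 20.6% and 11.8% of genes in the 3 bins from 25 bases before to 50 after the start, where other tested genes had it in 1.82%, 0.976% and 0.478%.

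The question of the study was how cells sensitive or resistant to LDHA inhibition respond to it in their mRNA. In parental MIAPaCa2 cells, the ribosome biogenesis mRNAs fell together after oxamate. Of the 40 genes, 33 were lower, 1 was higher and 6 were not called at an adjusted p under 0.05 (edgeR's quasi-likelihood test, Benjamini-Hochberg over all genes tested). Over all genes tested, 30.4% were lower and 28.3% higher at that threshold. The list decreased by 22.2% at its median, a log2 fold change of -0.36 beside 0.003 for all genes tested. By the threshold of the study, a change of over 1.5-fold at an unadjusted p under 0.05, 6 genes changed, against 9.88% of all genes tested, and all 6 were lower: LTV1, RRS1, UTP15, NOP2, WDR43 and UTP3. The typical fall was small in size but larger than the spread between replicates. For each of the 33, the 3 oxamate-treated libraries lay below the 3 vehicle-treated ones. The calls rest on these same libraries, so this is no separate support, and it was not counted over all genes tested. Without the parental oxamate and resistant vehicle replicates 3, which were rich in nuclear-retained RNA, the counts were again 33 lower and 1 higher. With library size alone in the place of TMM factors 37 were lower, the 4 added being NOP10, NOB1, PES1 and PPAN. That setting gave 40.6% of all genes tested lower and 19.6% higher.

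The largest fall was that of LTV1, a factor that must leave the small-subunit precursor for its last maturation steps. LTV1 stood at 22.9, 22.7 and 23.5 CPM in the vehicle-treated and at 10.7, 11.6 and 11.0 CPM in the oxamate-treated parental libraries. The groups lay far apart, the log2 fold change being -1.06 (standard error, SE, 0.045, Benjamini-Hochberg adjusted p = 5.15e-11 by edgeR quasi-likelihood), a fall of 51.9%. Among the other late small-subunit factors, RRP12 fell by 0.55 and BYSL by 0.50 on the log2 scale. NOB1, the endonuclease that trims the small-subunit rRNA, had 259, 249.8 and 249 CPM after vehicle and 264, 249.9 and 243 CPM after oxamate. Its groups overlapped throughout and it was not called (log2 fold change -0.003).

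The small-subunit processome is the large particle that forms on the nascent rRNA precursor, and the mRNAs of 7 of its 8 listed proteins fell. WDR43, a subunit of the subcomplex that also holds UTP15, WDR75 and HEATR1, had 84.5, 84.7 and 84.9 CPM after vehicle and 54.2, 53.3 and 53.6 CPM after oxamate. This tight pair of groups gave a log2 fold change of -0.66 (SE 0.025, Benjamini-Hochberg adjusted p = 1.78e-11 by edgeR quasi-likelihood). The other proteins of that subcomplex fell to different degrees, UTP15 by 0.86, WDR75 by 0.44 and HEATR1 by 0.28 on the log2 scale. UTP3 fell by 0.66, UTP20 by 0.46 and RRP9, a protein of the U3 snoRNP, by 0.32. NOP14 was the exception, with 66.0 ± 1.30 CPM on vehicle and 67.4 ± 1.10 CPM on oxamate (SD, n = 3 each).

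Of the large-subunit factors, 10 of 12 fell. RRS1, which helps to place the smallest rRNA in the large-subunit precursor, had 22.2, 22.9 and 21.5 CPM after vehicle and 12.5, 11.6 and 12.3 CPM after oxamate. It was the second-largest fall of the list (log2 fold change -0.87, SE 0.041, Benjamini-Hochberg adjusted p = 1.77e-10 by edgeR quasi-likelihood). NOP2, an rRNA cytosine methyltransferase, fell by 0.71, from 60.4 ± 1.53 to 37.0 ± 0.734 CPM. MRTO4 fell by 0.55, NOP16 by 0.43, RRP1B by 0.42, NIP7 by 0.41, and the GTPases GNL3 (nucleostemin) and GNL2 by 0.36 and 0.14 on the log2 scale. The 3 proteins of the PeBoW complex did not move alike. WDR12 fell by 0.48 and BOP1 by 0.21, whereas PES1 had a log2 fold change of -0.02 and was not called. PPAN, the other gene not called (-0.06), shares 56.0% of its exon bases with the readthrough gene PPAN-P2RY11, so its count is uncertain.

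The mRNAs of the snoRNP proteins were divided. NOP56, a scaffold protein of box C/D snoRNPs, had 85.5, 82.4 and 81.3 CPM after vehicle and 59.0, 56.3 and 62.6 CPM after oxamate. All 3 oxamate values were lower, with a log2 fold change of -0.49 (SE 0.036, Benjamini-Hochberg adjusted p = 1.87e-08 by edgeR quasi-likelihood), and its partner NOP58 fell by 0.39. FBL, the methyltransferase of the same particle, went the other way. It had 299.6, 282 and 271 CPM after vehicle and 330.0, 323 and 315 CPM after oxamate, so that the groups did not overlap. FBL was the 1 gene of the list that rose (log2 fold change 0.18, SE 0.037, Benjamini-Hochberg adjusted p = 0.000563 by edgeR quasi-likelihood). Of the box H/ACA proteins, the pseudouridine synthase DKC1 fell from 152 ± 0.671 to 118 ± 0.872 CPM (log2 fold change -0.37), GAR1 fell by 0.34 and NHP2 by 0.13. NOP10, the smallest core protein of that particle, was at 50.8 ± 2.00 and 49.4 ± 2.01 CPM and was not called. Each of the nucleolar phosphoproteins fell. NOLC1, a chaperone of snoRNPs, had 201, 199 and 202 CPM after vehicle and 154, 157 and 156 CPM after oxamate (-0.37). NCL went from 1098 ± 6.95 to 938 ± 0.593 CPM (-0.23) and NPM1 from 2102 ± 37.1 to 1997 ± 38.7 CPM (-0.07).

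The mRNAs of RNA polymerase I followed those of the assembly factors, with 5 of 6 genes lower. POLR1B, its second-largest subunit, had 44.3, 44.1 and 45.9 CPM after vehicle and 36.4, 36.1 and 34.0 CPM after oxamate. That was a log2 fold change of -0.33 (SE 0.034, Benjamini-Hochberg adjusted p = 4.91e-07 by edgeR quasi-likelihood). POLR1A, the largest subunit, fell by 0.44 and POLR1C, which RNA polymerase III also uses, by 0.36. RRN3, the factor that makes the polymerase competent to start, fell by 0.26, and UBTF, which covers the active rRNA genes, by 0.08. TAF1D, a subunit of the promoter selectivity factor, had 36.9, 40.4 and 40.8 CPM after vehicle and 41.8, 41.4 and 42.5 CPM after oxamate. Its oxamate-treated libraries were all higher, but the difference of 0.09 did not pass the test (Benjamini-Hochberg adjusted p = 0.0718 by edgeR quasi-likelihood).

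**Figure D2:**
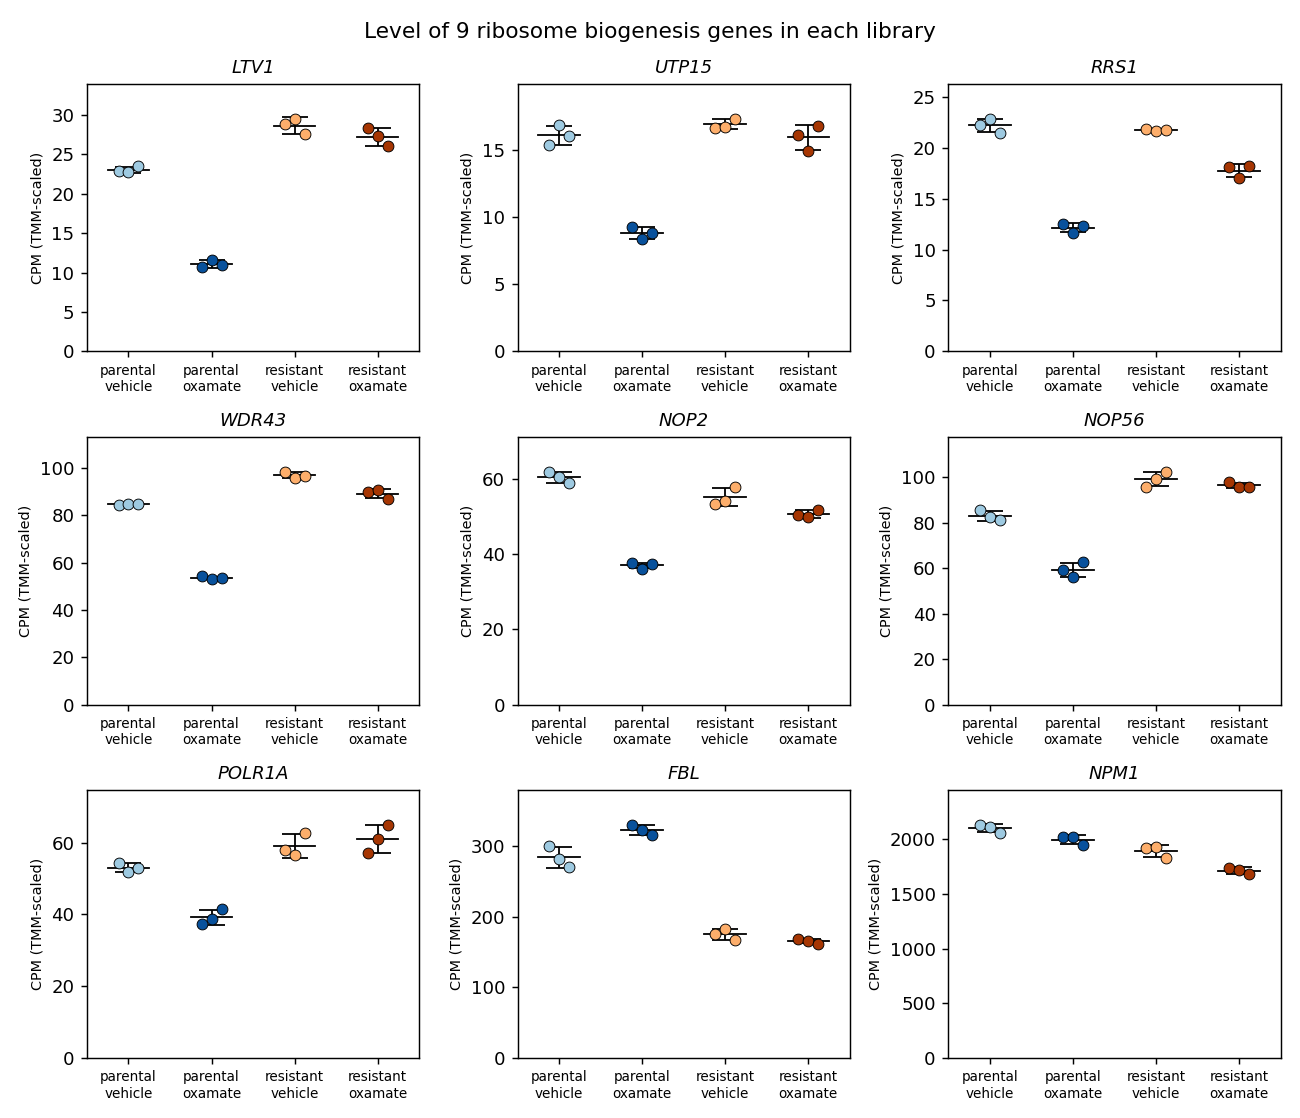
Level of 9 of the genes in each library (y axis, CPM after TMM scaling, from 0; x axis, group), with the mean and SD of the 3 libraries as bars. LTV1, UTP15, RRS1, WDR43, NOP2, NOP56 and POLR1A were lowest in oxamate-treated parental cells, while FBL was highest there and NPM1 was lowest in oxamate-treated resistant cells.

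In oxamate-resistant MIAPaCa2 cells the 40 genes differed little between oxamate and vehicle. The labels do not give the length of treatment, or how long the resistant cells on vehicle had been without the drug. Of the 40 genes, 22 were lower, 0 were higher and 18 were not called at an adjusted p under 0.05 (edgeR quasi-likelihood, Benjamini-Hochberg), where 12.5% of all genes tested were lower and 9.01% higher. The list decreased by 7.44% at its median (log2 fold change -0.11), and no gene passed the threshold of the study, which 2.50% of all genes tested did. The number called lower depended on single libraries and on the scaling. It was 15 without resistant oxamate replicate 1 and also 15 without replicate 3, 25 without parental oxamate replicate 3, and 14 when library size alone replaced TMM. Library size alone gave 8.09% of all genes tested lower. Without the 2 libraries rich in nuclear-retained RNA it was 24, where 16.5% of all genes tested were lower. That fit kept resistant vehicle libraries at 583 and 534 CPM of those RNAs beside resistant oxamate libraries at 1080 to 1407 CPM. It therefore does not even out these RNAs between the groups.

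RRS1 had the largest fall in these cells. It had 21.9, 21.6 and 21.7 CPM on vehicle and 18.1, 17.0 and 18.2 CPM after oxamate, with no overlap. The log2 fold change was -0.29 (SE 0.041, Benjamini-Hochberg adjusted p = 0.000207 by edgeR quasi-likelihood). GNL2, a GTPase of large-subunit export, followed, with 83.6, 83.8 and 81.1 CPM after vehicle and 69.0, 69.8 and 70.7 CPM after oxamate. Its log2 fold change was -0.25 (SE 0.027, Benjamini-Hochberg adjusted p = 1.81e-05 by edgeR quasi-likelihood). Of the large-subunit factors, 8 of 12 were called lower, among them NOP16 (-0.24), WDR12 (-0.14) and NOP2 (-0.12), the last a call that was lost with library size alone.

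Several genes that had not fallen in parental cells fell here. NOP14 had 69.0, 65.8 and 67.7 CPM after vehicle and 58.3, 60.6 and 59.5 CPM after oxamate (log2 fold change -0.18, SE 0.028). NOB1 went from 218, 220.0 and 210.4 CPM to 194, 198 and 191 CPM (-0.15), and NOP10 from 35.5 ± 0.489 to 32.3 ± 0.489 CPM (-0.14). For TAF1D the values were 45.9, 43.5 and 46.1 CPM and then 39.7, 42.6 and 38.9 CPM (-0.16, Benjamini-Hochberg adjusted p = 0.0163 by edgeR quasi-likelihood), a call that was lost with library size alone. These 4 genes were called lower in resistant and not in parental cells, and the difference between the lines itself passed the test for all but NOP10 with TMM, and for none of the 4 with library size alone. For NOP14 the opposite-strand gene NOP14-AS1 covers 17.1% of its exon bases, and the sources do not say that counting used strand.

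Among the snoRNP proteins, DKC1 fell from 152, 153 and 147 CPM to 132, 131 and 131 CPM (log2 fold change -0.20, SE 0.022, Benjamini-Hochberg adjusted p = 3.09e-05 by edgeR quasi-likelihood). None of the 3 box C/D proteins was called at an adjusted p under 0.05. FBL, the one with the smallest p, stood at 175, 183 and 167 CPM and then at 168, 165 and 162 CPM, with overlapping groups. Each of the 3 nucleolar phosphoproteins was lower. NCL went from 1002, 1007 and 970.3 CPM to 882, 881 and 882 CPM (-0.17), NPM1 changed by -0.15 and NOLC1 by -0.10 on the log2 scale. Of the RNA polymerase I genes 2 of 6 were called, TAF1D and POLR1B (-0.11), the second also lost with library size alone. LTV1, the gene with the largest fall in parental cells, had 28.9, 29.5 and 27.5 CPM after vehicle and 28.4, 27.3 and 26.1 CPM after oxamate, and was not called (-0.07, Benjamini-Hochberg adjusted p = 0.216 by edgeR quasi-likelihood).

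Whether the responses of the lines differed was asked of the same model, by an interaction contrast. The value is the log2 response to oxamate in resistant cells minus that in parental cells. A positive value is thus a weaker fall, or a rise, in the resistant cells where the parental cells fell. It was positive for 26 genes, negative for 5 and not called for 9 at an adjusted p under 0.05 (edgeR quasi-likelihood, Benjamini-Hochberg), where 22.7% of all genes tested were positive and 21.4% negative. Its median was 0.23 over the list and -0.007 over all genes tested. By the threshold of the study 4 genes passed, against 8.48% of all genes tested. With library size alone, which moved the median of all genes by 0.105, the counts were 32 positive and 1 negative. That setting gave 34.6% of all genes tested positive and 12% negative. Without the 2 libraries rich in nuclear-retained RNA the counts were 24 and 7, where 23.8% and 23.2% of all genes tested were positive and negative. The part of those RNAs in the difference was not tested.

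LTV1 had the largest difference, 0.98 (SE 0.061, Benjamini-Hochberg adjusted p = 1.06e-08 by edgeR quasi-likelihood), followed by UTP15 at 0.78, UTP3 at 0.73 and NOP2 at 0.59. NOP2 fell from 61.9, 60.5 and 58.8 CPM to 37.5, 36.2 and 37.4 CPM in parental cells. In resistant cells it went from 53.4, 54.2 and 57.8 CPM to 50.4, 49.9 and 51.8 CPM, so that the groups did not overlap in either line and lay further apart in the parental one. WDR43 had a difference of 0.54 (SE 0.035, Benjamini-Hochberg adjusted p = 1.5e-08 by edgeR quasi-likelihood), its resistant libraries having 98.5, 96.1 and 96.6 CPM after vehicle and 89.8, 91.0 and 87.1 CPM after oxamate. Of the 33 genes that fell in parental cells, 26 had a less negative response in resistant cells by this test and 6 were not called. In 1 it was more negative (GNL2, -0.11, which was 0.000198 and not called with library size alone). The parental libraries that picked these 33 also enter the contrast, which favours a positive value. The like share over all genes that fell was not taken. Of the 26, 14 were still called lower in the resistant cells and 12 were not. The other 4 negative differences were those of FBL (-0.27), TAF1D (-0.25), NOP14 (-0.21) and NOB1 (-0.15), and of these FBL was the one still called with library size alone. By role, 7 of 8 processome proteins, 8 of 12 large-subunit factors, 3 of 4 late small-subunit factors and 4 of 6 RNA polymerase I genes had a positive difference. It was also positive for 2 of 3 box C/D proteins, 1 of 3 nucleolar phosphoproteins and 1 of 4 box H/ACA proteins. With library size alone, DKC1, NHP2 and GAR1 of the box H/ACA proteins were called positive (0.279, 0.163 and 0.293). So were NCL (0.16) and NOLC1 (0.371) of the phosphoproteins.

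**Figure D3:**
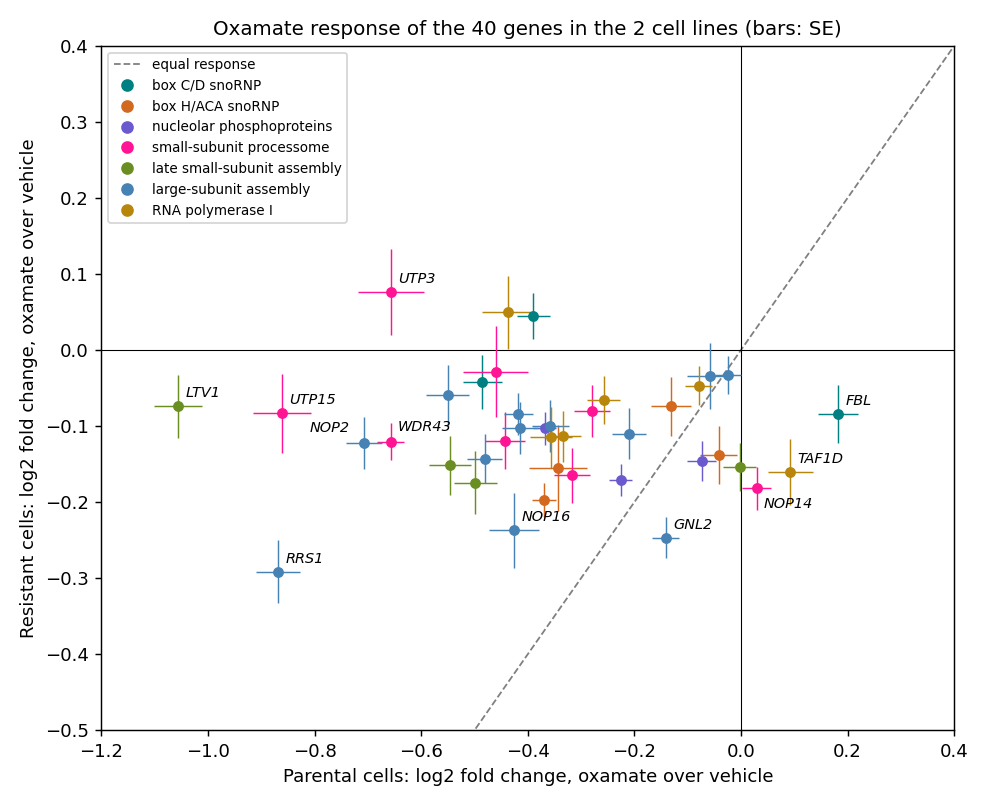
Log2 fold change after oxamate in parental cells (x axis) and in resistant cells (y axis) for each of the 40 genes, coloured by role, with standard errors as bars and a dashed line where the responses are equal. LTV1 lies at -1.06 on the x axis and -0.07 on the y axis, and 32 of the 40 genes have the more negative value in parental cells.

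Without the drug, these mRNAs were neither mostly higher nor mostly lower in the resistant cells. Relative to vehicle-treated parental cells, 12 of the 40 genes were higher, 18 lower and 10 not called at an adjusted p under 0.05 (edgeR quasi-likelihood, Benjamini-Hochberg), where 38.4% of all genes tested were higher and 37.3% lower. The median log2 fold change was -0.04 beside 0.03 for all genes tested. By the threshold of the study 2 genes changed, FBL and BOP1, against 23.4% of all genes tested. Directions of small size depended on the scaling in this comparison. Library size alone moved the median of all genes by 0.219 and gave 29 higher and 5 lower. That setting gave 58.6% of all genes tested higher and 19% lower. Of the 18 genes lower with TMM, 5 were again lower with library size alone, 6 were not called and 7 were higher. The 12 genes higher with TMM were higher with library size alone too. Without the 2 libraries rich in nuclear-retained RNA the counts were 12 higher and 17 lower, where 37.2% and 36.5% of all genes tested were.

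The mRNAs of the box C/D proteins differed between the lines in opposite directions. FBL had 299.6, 282 and 271 CPM in vehicle-treated parental and 175, 183 and 167 CPM in vehicle-treated resistant cells. That was a log2 fold change of -0.70 (SE 0.038, Benjamini-Hochberg adjusted p = 1.19e-10 by edgeR quasi-likelihood), the lowest of the list. NOP58 had 38.9, 40.6 and 42.2 CPM in parental and 57.2, 56.4 and 56.6 CPM in resistant cells, a log2 fold change of 0.49 (SE 0.030), and NOP56 was higher by 0.26. So the mRNAs of the scaffold proteins were higher and that of the methyltransferase lower in the resistant cells, with no overlap of libraries in any of the 3. Of the box H/ACA proteins NOP10 was lower, from 53.1, 49.4 and 49.8 CPM to 35.8, 35.9 and 35.0 CPM (-0.52, SE 0.036), and NHP2 was lower too (-0.49). NHP2 shares 27.4% of its exon bases with RMND5B on the opposite strand. DKC1 was not called (-0.01).

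Of the small-subunit proteins, UTP3 was the highest, with 15.6, 14.9 and 13.7 CPM in parental and 23.2, 22.1 and 19.9 CPM in resistant cells (log2 fold change 0.55, SE 0.056, Benjamini-Hochberg adjusted p = 2.13e-07 by edgeR quasi-likelihood). LTV1 was higher by 0.32, UTP20 by 0.33 and WDR43 by 0.20. Of the large-subunit factors BOP1 was lower, with 189, 180.4 and 172 CPM in parental and 115, 117 and 113 CPM in resistant cells (-0.65, SE 0.032), and GNL2 was lower by 0.37. The other proteins of the PeBoW complex were not called (PES1 -0.04 and WDR12 0.07). MRTO4 was the 1 large-subunit factor called higher (0.10). Among the RNA polymerase I genes, UBTF was higher at 85.2, 86.6 and 82.6 CPM against 74.6, 72.5 and 73.7 CPM in parental cells (0.20, SE 0.025). TAF1D (0.20), POLR1A (0.15) and POLR1B (0.13) were also higher. NOLC1 was lower, at 166, 169 and 169 CPM against 201, 199 and 202 CPM (-0.26), but was not called with library size alone, and NCL (-0.14) and NPM1 (-0.15), lower with TMM, were higher with library size alone.

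Under oxamate, more of these mRNAs were higher in the resistant cells than lower. Relative to oxamate-treated parental cells, oxamate-treated resistant cells had 24 of the 40 mRNAs higher, 9 lower and 7 not called at an adjusted p under 0.05 (edgeR quasi-likelihood, Benjamini-Hochberg), where 40.6% of all genes tested were higher and 39.7% lower. The median log2 fold change was 0.18, beside 0.01 for all genes tested. By the threshold of the study 11 genes changed, 9 higher and 2 lower, against 34.3% of all genes tested. The 24 genes were higher with library size alone as well, which moved the median of all genes by 0.324 and gave 34 higher and 5 lower. That setting gave 62.6% of all genes tested higher and 19.3% lower. Without the 2 libraries rich in nuclear-retained RNA the counts were 24 higher and 11 lower. This comparison shares its libraries with both oxamate responses. By arithmetic, its change from the comparison with vehicle is the difference between those responses, so that change is no separate result. From one comparison of the lines to the other, 11 genes were higher in both, 8 lower in both, 5 lower without and higher with oxamate, and 8 not called without and higher with it. The like counts over all genes tested were not taken, so these only describe the list.

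The 5 genes called in opposite directions were NOP2 (-0.13 without and 0.45 with oxamate), BYSL (-0.13 and 0.19), NIP7 (-0.16 and 0.15), POLR1C (-0.10 and 0.14) and RRN3 (-0.10 and 0.09), but with library size alone all 5 had positive values without oxamate as well (0.06 to 0.12) and 4 of them were called higher. RRN3 has 3 listed pseudogenes, RRN3P1 to RRN3P3, at no more than 2.68 CPM in any group.

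LTV1 and UTP3 stood highest. LTV1 had 10.7, 11.6 and 11.0 CPM in parental and 28.4, 27.3 and 26.1 CPM in resistant cells under oxamate. The log2 fold change was 1.30 (SE 0.045, Benjamini-Hochberg adjusted p = 3.11e-13 by edgeR quasi-likelihood), a level 146% higher. UTP3 had 9.46, 9.73 and 9.01 CPM in parental and 22.4, 23.8 and 22.6 CPM in resistant cells (1.29, SE 0.062). WDR43 had 54.2, 53.3 and 53.6 CPM against 89.8, 91.0 and 87.1 CPM (0.73), and UTP15 and UTP20 were higher by 0.85 and 0.76. Of the 8 processome proteins, 6 were higher. NOP14 was lower with TMM (-0.18) and higher with library size alone (0.14).

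NOP58 had 30.4, 30.9 and 31.5 CPM in parental and 58.3, 59.0 and 58.3 CPM in resistant cells (log2 fold change 0.92, SE 0.032, Benjamini-Hochberg adjusted p = 2.48e-13 by edgeR quasi-likelihood), and NOP56 was higher by 0.70. FBL was again the lowest, at 330.0, 323 and 315 CPM against 168, 165 and 162 CPM (-0.97, SE 0.038). The mRNAs of the methyltransferase and its scaffold thus differed in opposite directions here too. NOP10 was the next lowest, at 50.7, 50.5 and 47.1 CPM against 31.9, 32.9 and 32.2 CPM (-0.61). Among the large-subunit factors MRTO4 (0.59), RRS1 (0.55) and NOP2 (0.45) were higher. GNL2 was lower, with 99.6, 97.6 and 94.3 CPM in parental and 69.0, 69.8 and 70.7 CPM in resistant cells (-0.48), and so was BOP1 (-0.55). POLR1A had 37.2, 38.8 and 41.4 CPM in parental and 57.2, 61.0 and 64.9 CPM in resistant cells (0.64), and 5 of 6 RNA polymerase I genes were higher. NPM1 had 2021, 2017 and 1952 CPM in parental and 1737, 1723 and 1678 CPM in resistant cells (-0.22), a direction that turned with library size alone (0.10), as did that of NCL (-0.09 with TMM and 0.23 with library size alone).

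**Figure D4:**
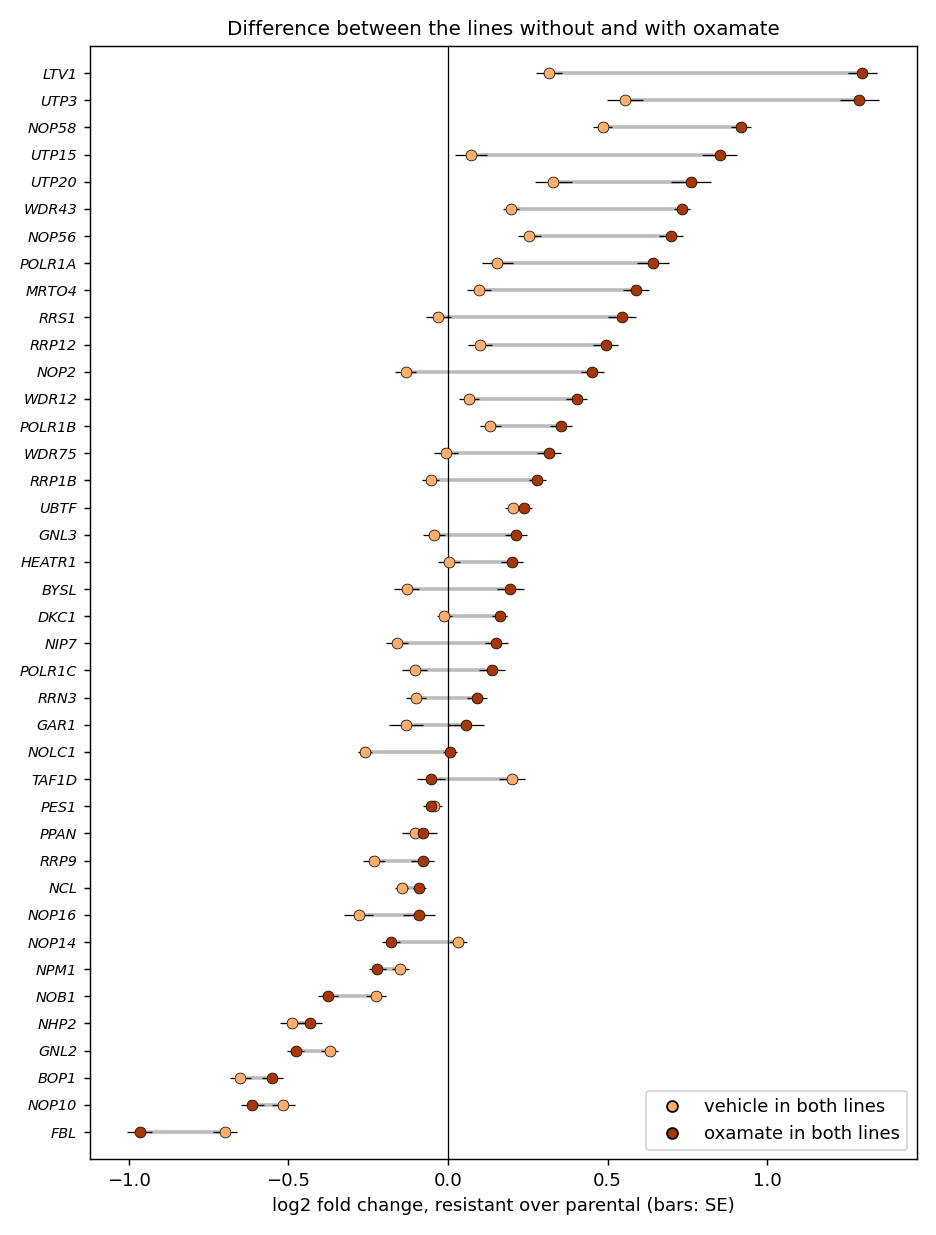
Log2 fold change of resistant over parental cells for each of the 40 genes, with vehicle in both lines (light) and with oxamate in both lines (dark), with standard errors as bars. The genes run from LTV1 (0.32 and 1.30) to FBL (-0.70 and -0.97), and the dark point lies to the right of the light point in 32 of 40 genes.

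**Figure D5:**
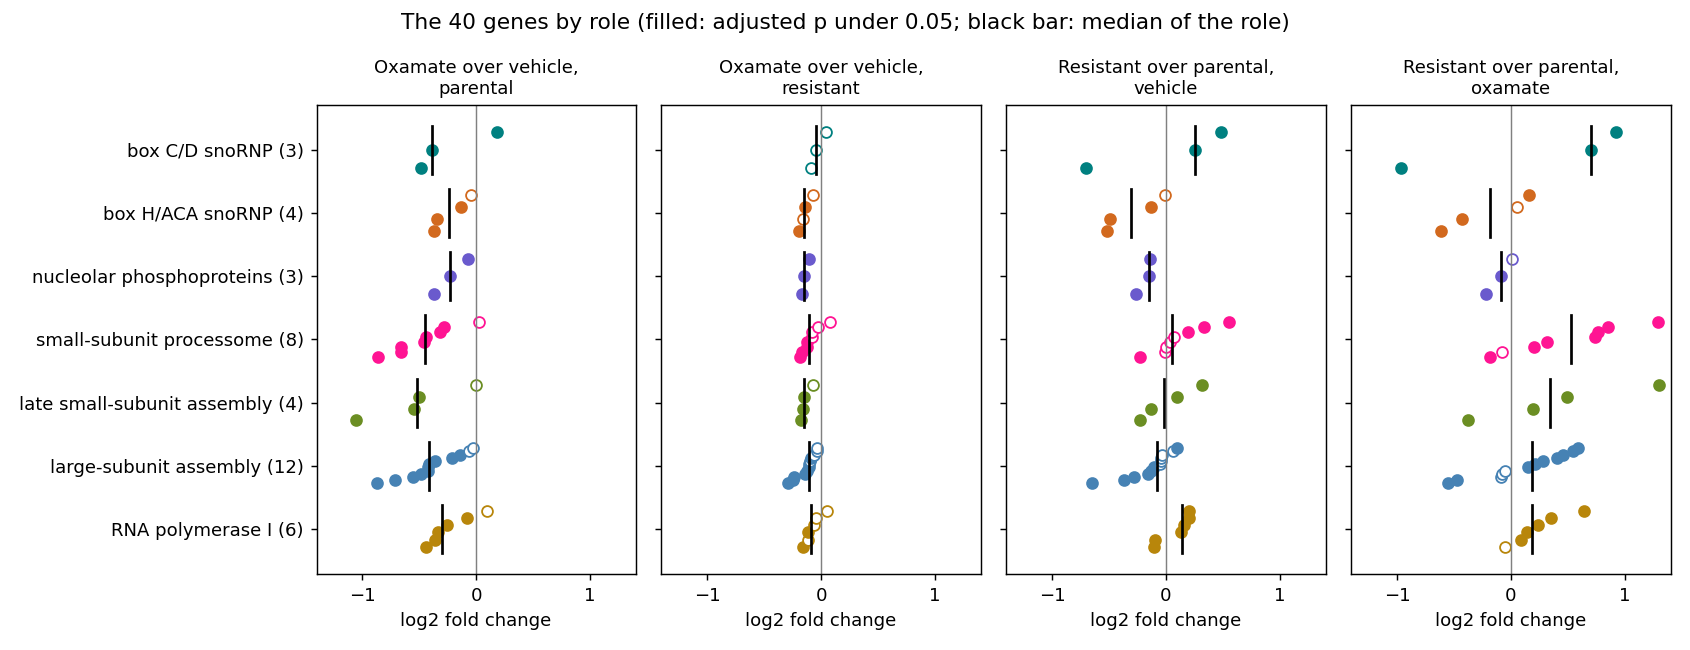
Log2 fold change of each gene by role (rows, number of genes in brackets) in the 4 comparisons, filled where the adjusted p is under 0.05, with the median of the role as a black bar. In parental cells the median after oxamate runs from -0.23 in the nucleolar phosphoproteins to -0.52 in the late small-subunit factors, and in resistant cells from -0.04 to -0.15.

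Of the 40 genes, 9 carry small nucleolar RNA genes within their bounds in GENCODE release 29 (NOP56, NOP58, DKC1, NCL, WDR43, GNL3, PPAN, POLR1C and TAF1D). Their median log2 fold change in parental cells after oxamate was -0.36, with 7 of 9 lower, and that of the 31 others was -0.37, with 26 of 31 lower. These calls are at an adjusted p under 0.05, where 30.4% of all genes tested were lower. The like split over all genes tested was not taken. The small RNAs themselves were not measured by these libraries of poly(A) RNA. Opposite-strand exons also cover 23.2% of the exon bases of HEATR1 (LGALS8), 20.2% of NIP7 (COG8) and 12.0% of NOP16 (ARL10), whose counts carry that uncertainty.

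A wider list of 166 other factors of rRNA transcription, processing and assembly, 165 of them tested, also moved downward for the most part after oxamate in parental cells. There 126 were lower and 9 higher after oxamate, against 30.4% and 28.3% of all genes tested, with a median log2 fold change of -0.23. In resistant cells 57 were lower and 6 higher, against 12.5% and 9.01%, with a median of -0.06. The difference between the responses was positive for 94 and negative for 11, against 22.7% and 21.4%, with a median of 0.16. Between the lines, 42 were higher and 91 lower with vehicle, against 38.4% and 37.3%, with a median of -0.13. Library size alone moved the median of all genes by 0.219 in that comparison, which is larger in size. The wider list was not counted with that setting, so its direction there depends on the scaling. With oxamate 72 were higher and 63 lower, against 40.6% and 39.7%, which is near the share over all genes tested. NOL6, a processome protein, had the smallest p of those that fell in parental cells, from 17.6 ± 0.251 to 8.94 ± 0.187 CPM (log2 fold change -0.98). RIOK3, a kinase of the RIO family, had the smallest p of those that rose, from 140.3 ± 3.81 to 188 ± 4.86 CPM (0.42). In resistant cells these were DDX21, a nucleolar helicase (335 ± 7.33 to 279 ± 3.16 CPM, -0.27), and DDX51, a helicase of the large-subunit pathway, which was higher (14.3 ± 1.75 to 18.6 ± 0.848 CPM, 0.38). Between the lines, the helicase DDX47 had the smallest p of those lower in resistant cells, both with vehicle (-0.65) and with oxamate (-0.72).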

How the data were processed

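RNA-seq of 12 libraries, 3 for each of 4 groups, was used. Per the study's methods, poly(A) RNA was enriched with oligo(dT) beads and prepared with the NEBNext Ultra kit. Per the labels, the authors used Bowtie2 2.1.0, RSEM 1.2.15 and hg38. They deposited expected counts per gene symbol without normalization. RSEM divides reads that fit several transcripts, so 11.6% of values were not whole (tolerance 0.001), and the values of HEATR1, NPM1, NOP14, PPAN and RRN3 were fractional in each library. The methods also describe STAR and featureCounts, which do not give such values. Every row carried a gene name.

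Rounded expected counts were fitted with edgeR 4.0.16 under R 4.3.3 (filterByExpr, TMM, glmQLFit and glmQLFTest on 4 group means of all 12 libraries, 8 residual degrees of freedom), with Benjamini-Hochberg adjustment over 14582 genes and a threshold of 0.05. Levels are CPM with TMM factors. A floor of 3 counts was 0.0283 to 0.0581 CPM, which covers counting error only. The fit was also tested on simulated data, which are not reported here. Pairs of replicates of a group differed by more than sampling noise when all genes tested were summed (chi-square per degree of freedom 2.09 to 32.2). Such a sum can be carried by a few abundant RNAs and does not describe the typical gene.

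The 40 genes, the wider list, the roles and the tests were chosen with earlier results of these data known. Shown library by library were, in each comparison, the gene of each role with the smallest p, the 2 highest and 2 lowest called genes, and for the difference between responses the 3 with the smallest p. UTP15 was plotted outside that rule, after its values had been seen. Of the wider list, the gene with the smallest p in each direction was named, except 1 that is not reported here. Alternatives were RLE and upper-quartile factors, library size alone, no filter, a mean count of at least 25, DESeq2 1.42.0, limma-voom (limma 3.58.1), only the 6 libraries compared, a replicate block, each replicate left out in turn, and both libraries rich in nuclear-retained RNA left out. For motifs, the 250 bases before the start alone were planned and the range near the start was added after seeing the data. Promoter sequences were RefSeq's (GRCh38.p14), and the last 20 bases of 38 of 41 windows were found in a GENCODE release 29 transcript of the gene on its strand and 0 on the other. The chromatin and metabolite measurements were not analysed here.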

Additional observations from a re-analysis of the deposited data

Results flagged for a closer look

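The oxamate response differed between the lines, by the contrast of responses in edgeR's quasi-likelihood test at a Benjamini-Hochberg adjusted p under 0.05, for 31 of the 40 genes, 26 positive and 5 negative, where 22.7% of all genes tested were positive and 21.4% negative. Values are the log2 response in resistant cells minus that in parental cells. Among the snoRNP proteins they were 0.44 for NOP56, 0.43 for NOP58, -0.27 for FBL and 0.17 for DKC1, and of the phosphoproteins 0.27 for NOLC1. In the processome they were 0.54 for WDR43, 0.32 for WDR75, 0.73 for UTP3, 0.78 for UTP15, 0.43 for UTP20, 0.20 for HEATR1, 0.15 for RRP9 and -0.21 for NOP14. The late small-subunit factors had 0.39 (RRP12), 0.32 (BYSL), 0.98 (LTV1) and -0.15 (NOB1). The large-subunit factors had 0.59 (NOP2), 0.19 (NOP16), 0.34 (WDR12), 0.33 (RRP1B), 0.58 (RRS1), 0.26 (GNL3), -0.11 (GNL2), 0.31 (NIP7) and 0.49 (MRTO4). The RNA polymerase I genes had 0.49 (POLR1A), 0.22 (POLR1B), 0.24 (POLR1C), 0.19 (RRN3) and -0.25 (TAF1D). With library size alone the negative calls of NOP14, NOB1, GNL2 and TAF1D were lost. The adjusted p ran from 1.06e-08 (LTV1) to 0.0347 (NOP16). The summed nuclear-retained RNAs also differed between the libraries, from 321 to 1407 CPM, and their part in these differences was not tested.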

How the results depend on the processing

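Of 84 calls followed for 21 named genes, 1777 of 1832 alternative fits kept direction and side of the threshold, 48 kept the direction only and 7 turned. The 7 were with library size alone, at log2 values of 0.0746 and 0.235 for NCL and 0.0691 and 0.104 for NPM1 (resistant over parental, with vehicle and with oxamate), 0.14 for NOP14 (with oxamate), 0.087 for NOP2 (with vehicle) and 0.000198 for the difference between responses of GNL2. With library size alone the median log2 fold change of the list was -0.44 and -0.0811 after oxamate in parental and resistant cells (14 lower in the latter), 0.17 and 0.50 between the lines with vehicle and with oxamate (29 higher and 5 lower, and 5 lower with 17 past the threshold of the study), and 0.34 for the difference between responses (1 negative, 8 past that threshold). The shares of all genes tested higher and lower with library size alone were 58.6% and 19% between the lines with vehicle, and 62.6% and 19.3% with oxamate. Upper-quartile factors gave 2 genes higher in parental cells after oxamate, and medians of -0.0881 in resistant cells and of 0.032 (turned from -0.04) and 0.27 between the lines. A mean count of at least 25 moved the last 2 medians to -0.025 and 0.20, and a fit on only the 6 libraries compared moved the median under oxamate to 0.21. Without both libraries rich in nuclear-retained RNA that median was 0.16 and that of the difference between responses 0.21. The cause of these shifts was not tested. In the 250 bases before the start alone, CACGTG was in 5.88% of the genes.

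With each library left out in turn, the number higher in parental cells after oxamate was 1 to 2, and the medians ranged from -0.055 to -0.029 between the lines with vehicle, from 0.16 to 0.19 with oxamate and from 0.21 to 0.25 for the difference between responses. An arm left with 2 libraries shared the spread of the other groups.

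Replicate numbers did not pair the libraries (same-number correlations of deviations from -0.074 to 0.0943). With a replicate block the counts higher and lower were 1 and 33 in parental and 0 and 26 in resistant cells after oxamate, 12 and 18 between the lines with vehicle, 24 and 10 with oxamate, and 27 and 6 for the difference between responses, and no call of the 84 was lost. Depth is no limit for these genes, with at least 442 counts in each library. Small differences between the lines depend on the scaling, and the design cannot tell depth and line apart, since each parental library was deeper.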

Other observations

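Within the wider list, 21 genes were subunits, transcription factors or regulators of RNA polymerase III, which transcribes the smallest rRNA and the transfer RNAs. They include its repressor MAF1, so the counts are not those of the enzyme alone. The 21 fell in parental cells in 17 cases and rose in 0 after oxamate (median log2 fold change -0.20, edgeR's quasi-likelihood test at a Benjamini-Hochberg adjusted p under 0.05), where 30.4% of all genes tested were lower and 28.3% higher. In resistant cells 7 were lower and 1 higher (median -0.007), beside 12.5% and 9.01% of all genes tested. The difference between the responses was positive for 13 and negative for 1, beside 22.7% and 21.4% of all genes tested.

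Of 23 genes of the rRNA-processing exosome and RNase MRP, 17 were lower and 2 higher in parental cells after oxamate (median -0.23), beside 30.4% and 28.3% of all genes tested. In resistant cells 8 were lower and 2 higher (median -0.02), beside 12.5% and 9.01%. Of 13 other factors of small-subunit maturation, 11 were lower and 0 higher in resistant than in parental cells with vehicle (median -0.22), where 37.3% of all genes tested were lower and 38.4% higher. With oxamate 7 were lower and 3 higher (median -0.12), beside 39.7% and 40.6%. Library size alone moves all genes by 0.219 and 0.324 in these comparisons, which is as large as both medians. These counts were described, not tested as lists.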
